A study of Mus musculus with 18 samples.

Results

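The enzymes that make, salvage and balance nucleotides were examined by RNA sequencing of mouse CD8+ T cells. The set holds 32 genes, named by symbol and looked up by Ensembl identifier in GENCODE M21, and all 32 were found among the 55536 Ensembl gene rows of the deposited table. The rule used no measured value. They were divided by role into 6 genes of de novo purine synthesis, 4 of the AMP and GMP branches, 2 of purine base salvage and 3 of de novo pyrimidine synthesis. The others were 2 of CTP synthesis, 1 of uridine salvage, 4 nucleotide kinases, 2 of ribonucleotide reductase, 4 of thymidylate synthesis, 3 of deoxynucleoside salvage and 1 of nucleotide pool cleaning.

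All 18 libraries are labelled OT-I, the genotype of mice that carry a transgenic T cell receptor for SIINFEKL, a peptide of ovalbumin. There were 2 libraries labelled Tra2bKO (called knockout here), 8 labelled control, whose cells received a scrambled sequence, and 8 labelled naive. Knockout and control cells from spleen and lymph nodes were sampled 4 days after stimulation with SIINFEKL and costimulatory antibodies to OX40 and 41BB. Naive cells were taken on day 0 without that stimulation, so control against naive compares stimulated cells with unstimulated ones, and knockout against control compares cells labelled as lacking the splicing factor TRA2B with stimulated cells that kept it. The labels give no age or sex, and they do not say whether libraries of a group came from separate animals. The p-values therefore rest on the spread from library to library, and that spread may be technical.

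The knockout libraries held 79197461 and 93495846 counts in total, the controls 73735681 to 93972513 and the naive libraries 68249844 to 86932452. Levels are CPM, the counts of a gene relative to those of its library, scaled by TMM over all 18 libraries. Tra2b stood at 361 and 370.5 CPM in knockout libraries, 338 to 526 CPM in controls and 248 to 352 CPM in naive libraries. Knockout and control overlapped (log2 fold change -0.34, SE 0.13, adjusted p = 0.0899, quasi-likelihood test of edgeR, Benjamini-Hochberg). A gene count includes reads from edited transcripts, so it does not check the edit. Trbv12-1, the beta chain segment of OT-I, held 99.4 and 99.7% of the Trbv counts in knockout libraries and 99.6 to 99.8% in controls, but 5.95 to 12.4% in the libraries labelled naive, which goes against their OT-I label. All 4 markers of CD8 T cell identity were detected in every group, with a summed level of 2251 and 2599 CPM in knockout libraries, 2032 to 2584 CPM in controls and 3726 to 4545 CPM in naive libraries. The 8 dendritic cell and macrophage markers summed to 148 to 184 CPM in knockout, 152 to 453 CPM in control and 1042 to 2962 CPM in naive libraries. In control against naive all 8 of these markers, the 6 tested B cell markers and the 4 NK cell markers were called lower in controls. So were all 4 markers of CD8 T cell identity (median log2 fold change -0.81), where 39.0% of all genes tested were lower. The comparison therefore cannot separate stimulation from the source of the naive cells.

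A resting T cell keeps small nucleotide pools and enlarges them before it divides, since both RNA and DNA have to be made. Purine rings are built on phosphoribosyl pyrophosphate up to IMP, which then gives AMP and GMP, while pyrimidine rings are built up to UMP, which gives CTP and the thymidine nucleotides. Ribonucleotide reductase turns ribonucleotides into the deoxyribonucleotides of DNA, and its small subunit RRM2 is made in S phase. Salvage enzymes recover free bases and nucleosides instead, and the pools are kept in balance by enzymes that break down surplus or unwanted nucleotides.

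Promoter sequences are shown for 5 genes on which the results turn. Ppat and Paics encode enzymes of purine synthesis and lie head to head. Rrm1 and Rrm2 encode the subunits of ribonucleotide reductase, whose ratio was lower in the knockout libraries. Dtymk, the gene of thymidylate kinase, had the largest fall there. Each window runs from 250 bases before to 50 bases after the start of the gene, 5′ to 3′ on the strand of the gene, and comes from RefSeq on GRCm38.p6. Capitals mark the E-box word CACGTG, the CCAAT word (ATTGG on the other strand), the E2F words TTTGGCGC, TTTCGCGC, TTTCCCGC and TTTGCCGC, and the NRF1 word GCGCATGC, each searched on both strands. No capitalised match overlapped another.
Ppat, chr5:76951529-76951828, minus strand: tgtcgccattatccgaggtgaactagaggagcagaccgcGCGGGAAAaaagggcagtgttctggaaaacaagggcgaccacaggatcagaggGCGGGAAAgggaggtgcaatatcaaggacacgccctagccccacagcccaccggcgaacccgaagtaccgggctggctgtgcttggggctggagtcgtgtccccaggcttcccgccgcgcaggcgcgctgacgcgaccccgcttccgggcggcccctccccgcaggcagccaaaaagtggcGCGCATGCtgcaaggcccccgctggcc
Paics, chr5:76951052-76951351, plus strand: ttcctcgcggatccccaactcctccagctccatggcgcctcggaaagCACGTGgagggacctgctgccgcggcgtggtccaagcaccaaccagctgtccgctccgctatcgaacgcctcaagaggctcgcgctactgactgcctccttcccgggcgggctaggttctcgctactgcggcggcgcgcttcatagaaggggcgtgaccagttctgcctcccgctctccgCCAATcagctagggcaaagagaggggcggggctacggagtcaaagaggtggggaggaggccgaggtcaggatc
Rrm1, chr7:102441445-102441744, plus strand: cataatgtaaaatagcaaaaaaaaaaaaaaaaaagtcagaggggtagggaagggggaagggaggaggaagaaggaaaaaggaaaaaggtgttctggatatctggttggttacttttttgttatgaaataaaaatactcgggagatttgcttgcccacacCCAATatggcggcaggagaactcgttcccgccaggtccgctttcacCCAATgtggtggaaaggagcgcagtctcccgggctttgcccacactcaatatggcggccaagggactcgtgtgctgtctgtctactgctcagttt
Rrm2, chr12:24708004-24708303, plus strand: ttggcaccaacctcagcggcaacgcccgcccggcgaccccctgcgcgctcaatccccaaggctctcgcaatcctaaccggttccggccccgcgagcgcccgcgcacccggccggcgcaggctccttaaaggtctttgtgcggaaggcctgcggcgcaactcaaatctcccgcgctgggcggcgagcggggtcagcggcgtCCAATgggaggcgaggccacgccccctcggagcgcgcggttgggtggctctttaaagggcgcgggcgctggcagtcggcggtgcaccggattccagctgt
Dtymk, chr1:93801885-93802184, minus strand: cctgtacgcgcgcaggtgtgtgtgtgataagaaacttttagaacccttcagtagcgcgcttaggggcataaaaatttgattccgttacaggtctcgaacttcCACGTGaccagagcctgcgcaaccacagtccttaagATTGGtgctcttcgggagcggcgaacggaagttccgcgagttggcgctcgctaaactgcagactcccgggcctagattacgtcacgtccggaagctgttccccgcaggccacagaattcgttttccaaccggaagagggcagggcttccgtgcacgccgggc
The RefSeq table held windows for 30 of the 32 genes. The E-box word, which MYC and related factors bind, was in 6 of them (20.0%), those of Atic, Dtymk, Impdh2, Nme1, Paics and Tyms, against 8.09% of the windows of all 27025 genes. The E2F words were in 1 window (3.33%), that of Ppat, against 2.60% of all genes. The CCAAT word was in 12 windows (40.0%) against 41.1%, and the NRF1 word in 2 (6.67%), those of Ctps and Ppat, against 3.05%. Of 2 further words, the cell cycle word TTTGAA was in 5 windows (16.7%) against 20.2%, and TGATGCAA, which C/EBP and ATF4 dimers bind, was in 0 (0.00%) against 1.03%. Both Rrm1 and Rrm2 carry the CCAAT word, and Dtymk carries an E-box word beside it. These matches are descriptions of the letters in the windows.

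Per kilobase of transcript, Rrm2 had the highest mean level of the 32 genes in all 3 groups, with 569 ± 49.1 CPM per kb in knockout, 819 ± 35.1 in control and 288 ± 88.2 in naive libraries (SD, n = 2, 8 and 8). In naive libraries Nme2, at 243 ± 25 CPM per kb, lay within that spread. In controls the nucleoside diphosphate kinase gene Nme2 came next at 390.4 ± 30.5 CPM per kb, followed by the hypoxanthine salvage gene Hprt at 332 ± 20.3 and the dUTPase gene Dut at 312 ± 21. Hprt and Dut differed by less than the spread between libraries. Ribonucleotide reductase's large subunit gene Rrm1 followed at 269.6 ± 15.9 and Paics at 251 ± 20.7 CPM per kb, whose ranges of 1 SD overlap. The lowest levels in controls were those of Tk2, the mitochondrial thymidine kinase gene, at 9.44 ± 2.02, the dCMP deaminase gene Dctd at 9.18 ± 0.94 and Pfas, of purine synthesis, at 6.09 ± 0.857 CPM per kb. The levels of all 32 genes in every library are drawn in the heat map.

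**Figure D1:**
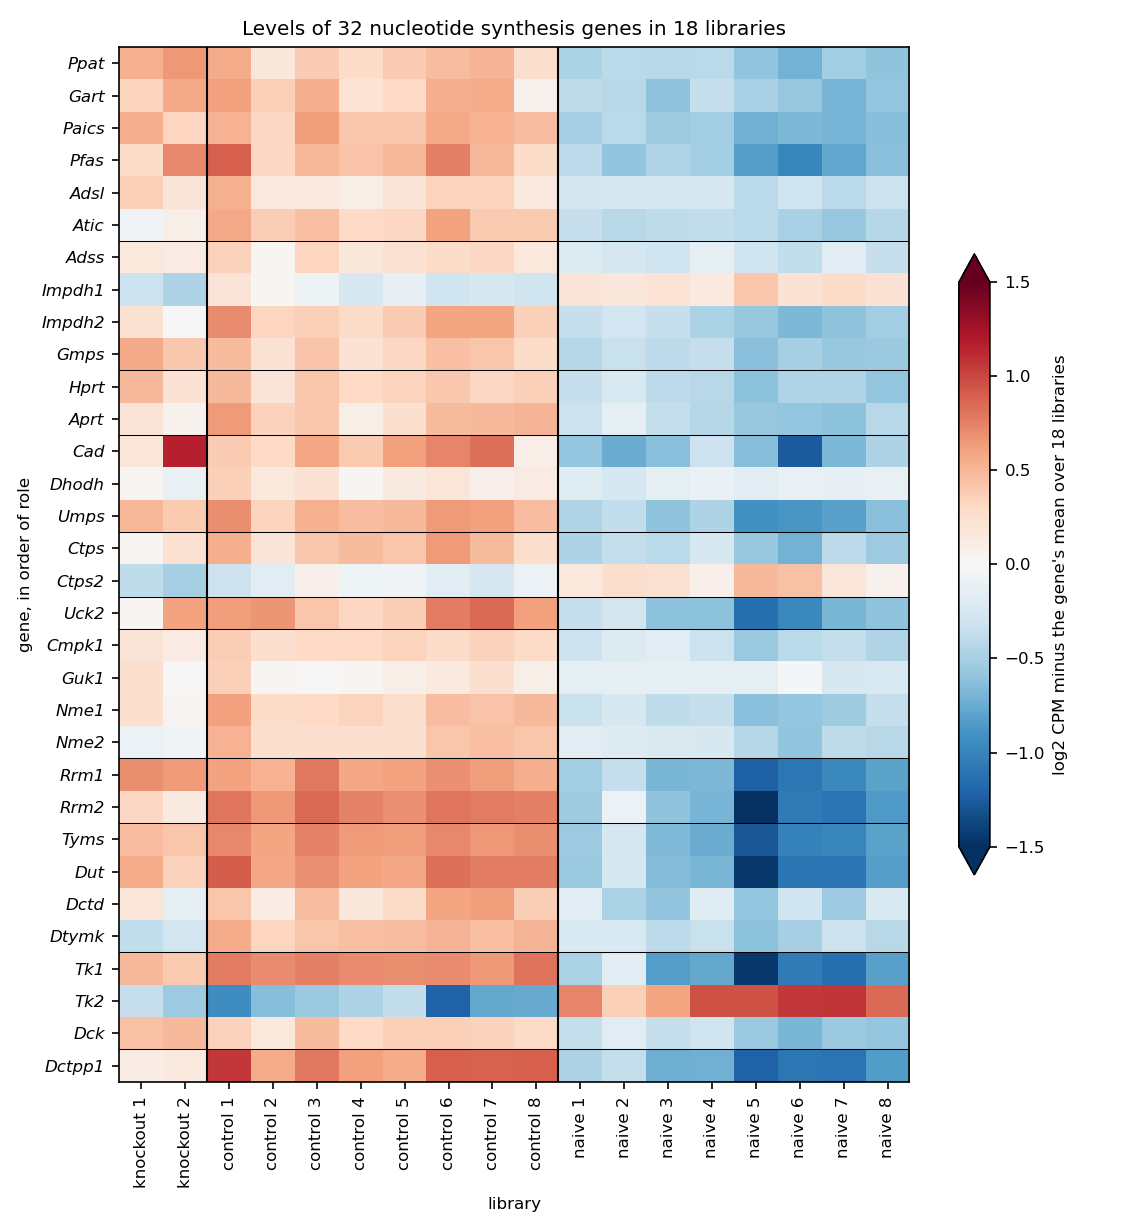
Heat map of the 32 genes (rows, in order of role, with lines between roles) in the 18 libraries (columns, by group). Colour is log2 CPM in a library minus the mean of that gene over all libraries: 29 rows are higher in all controls than in all naive libraries, the row of Tk2 runs the other way, and the knockout columns are below all control columns for Rrm2, Dtymk and Dctpp1.

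Control cells had higher transcripts than naive cells for nearly the whole pathway, and the largest differences were among the genes of deoxynucleotide synthesis. Of the 32 genes 29 were higher in controls (90.6%) and 3 lower, while of 17078 genes tested 32.5% were higher and 39.0% lower. The median log2 fold change of the 32 genes was 0.84, against -0.08 for all genes tested. It was 1.41 for the 10 genes of deoxynucleotide synthesis, salvage and pool cleaning, of which 9 rose, and 0.82 for the 22 genes of ribonucleotide synthesis and salvage, of which 20 rose. Levels of 29 genes were higher in every control than in every naive library, and those of 1 gene were lower, where 20.1% of all genes were higher and 22.2% lower without overlap. In bulk RNA, fewer cells with a transcript and less of it in each cell cannot be told apart. The proliferation marker Mki67, chosen after its values were seen, stood at 333 to 417 CPM in controls and 91.9 to 215 CPM in naive libraries, and its part in these differences was not tested.

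Among the 10 genes of the deoxynucleotide lists, Dctpp1 had the largest rise. It encodes the enzyme that breaks down dCTP and its modified forms and lies on chromosome 7 (127256959 to 127260709, minus strand, GRCm38). Dctpp1 stood at 104, 126 and 147 CPM (lowest, median, highest) in controls and at 30.6, 41.1 and 55.3 CPM in naive libraries, with no overlap (2.98-fold, log2 fold change 1.58, SE 0.12, adjusted p = 2.85e-09, quasi-likelihood test of edgeR, Benjamini-Hochberg). Rrm2, on chromosome 12 (24708241 to 24714146, plus strand), stood at 1654, 1781 and 1893 CPM in controls and at 358, 613 and 989.6 CPM in naive libraries (2.85-fold, adjusted p = 4.65e-08, same test). The gene of cytosolic thymidine kinase, Tk1, on chromosome 11 (117815526 to 117826092, minus strand), stood at 229, 239.6 and 258 CPM in controls and at 53.4, 82.6 and 131 CPM in naive libraries (2.85-fold, adjusted p = 1.62e-08, same test). Neither gene overlapped between the groups. Tk1 is overlapped on the opposite strand by Afmid, over 169 bases, and by Gm20708, so its counts are uncertain, though these stood at 13.5 and 1.85 CPM in controls. Dut rose 2.84-fold, the thymidylate synthase gene Tyms 2.69-fold and Rrm1 2.61-fold. Dtymk, Dctd and the deoxycytidine kinase gene Dck rose less, by 1.78-, 1.7- and 1.69-fold.

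Tk2 was the only gene of the deoxynucleotide lists that fell. It lies on chromosome 8 (104226685 to 104248558, minus strand) and had 13.3, 18.9 and 23.9 CPM in controls against 39.6, 57.5 and 64.9 CPM in naive libraries. Every control was below every naive library (2.89-fold lower, log2 fold change -1.53, SE 0.12, adjusted p = 2.36e-09, quasi-likelihood test of edgeR, Benjamini-Hochberg). The cytosolic and the mitochondrial thymidine kinase genes thus changed in opposite directions.

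All 6 genes of de novo purine synthesis rose, with log2 fold changes between 0.56 and 1.16. Ppat, whose enzyme commits phosphoribosyl pyrophosphate to the pathway, stood at 174 ± 16.1 CPM in controls and 93.9 ± 7.06 CPM in naive libraries (SD, n = 8 each, 1.85-fold). Paics, which encodes an enzyme of the middle steps, stood at 591 ± 41.9 CPM in controls and 283 ± 22.1 CPM in naive libraries (2.09-fold). Pfas rose 2.24-fold, Gart 1.89-fold, Atic, whose enzyme closes the ring to IMP, 1.8-fold and the adenylosuccinate lyase gene Adsl 1.47-fold. Ppat and Paics share 272 bases on opposite strands, and whether the counting used strand is not given in the sources used here, so reads in that stretch could be assigned to either gene.

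Of the genes downstream of IMP, Adss, which opens the AMP branch, rose 1.41-fold and Gmps, which closes the GMP branch, 1.75-fold. The IMP dehydrogenase genes, whose enzymes set the pace of GMP synthesis, went in opposite directions. Impdh2 stood at 255 ± 28.9 CPM in controls and 134 ± 12.9 CPM in naive libraries (SD, n = 8 each, log2 fold change 0.93, SE 0.07, adjusted p = 4.12e-09, quasi-likelihood test of edgeR, Benjamini-Hochberg). Impdh1 stood at 98, 107 and 138 CPM in controls and at 134, 139.7 and 161 CPM in naive libraries, and only the highest control reached the naive range (log2 fold change -0.35, SE 0.07, adjusted p = 0.000122, same test). Impdh2 shares 99.7% of 1545 bases with the pseudogene Impdh2-ps, which was listed at 29.9% of its level, so its counts are uncertain. With both added together, chosen after seeing the data, the level was 333 ± 38.8 CPM in controls and 174 ± 17.6 CPM in naive libraries. The purine salvage genes Hprt and Aprt rose 1.72- and 1.77-fold.

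In the pyrimidine branch, Cad, whose enzyme carries out the opening steps, rose 2.21-fold and Umps, whose enzyme makes UMP, 2.23-fold. Dhodh, which encodes the enzyme of the step on the mitochondrial inner membrane, rose by less, at 1.24-fold. The uridine and cytidine kinase gene Uck2 had the largest rise outside the deoxynucleotide lists, with 193 ± 25.7 CPM in controls and 82.8 ± 15.8 CPM in naive libraries (SD, n = 8 each, 2.33-fold). CTP synthase is encoded by 2 genes, and they differed in direction. Ctps stood at 119 ± 11.5 CPM in controls and 64.4 ± 6.37 CPM in naive libraries (1.85-fold higher), while Ctps2 stood at 79.6, 90.5 and 104 CPM in controls and at 103, 114 and 138 CPM in naive libraries (1.29-fold lower, adjusted p = 7.27e-05, quasi-likelihood test of edgeR, Benjamini-Hochberg). Among the kinases that phosphorylate mono- and diphosphates, Nme1 rose 1.76-fold, Nme2 1.59-fold, the UMP and CMP kinase gene Cmpk1 1.56-fold and the GMP kinase gene Guk1 1.21-fold.

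The naive libraries differed among themselves in several genes of deoxynucleotide synthesis. The highest control exceeded the lowest 1.14-fold for Rrm2, 1.13-fold for Tk1, 1.25-fold for Dut and 1.11-fold for Tyms. The highest naive library exceeded the lowest 2.76-fold for Rrm2, 2.46-fold for Tk1, 2.25-fold for Dut and 2.02-fold for Tyms. Other genes of these lists varied less among naive libraries. They differed 1.82-fold for Rrm1, 1.81-fold for Dctpp1, 1.31-fold for Dtymk and 1.45-fold for Dck, where controls differed 1.2-, 1.42-, 1.17- and 1.25-fold. For Dctd and Tk2 the controls varied more, with 1.43- and 1.8-fold against 1.34- and 1.64-fold in naive libraries. Outside these lists the naive libraries differed 1.91-fold for Cad and 1.81-fold for Uck2, and the controls 1.67- and 1.46-fold. Control library 1 was the highest of its group for 19 of the 32 genes and control library 2 the lowest for 16. Naive library 2 was the highest of its group for 17 of the 32 genes and naive library 5 the lowest for 14. The same 2 libraries had the highest and the lowest Mki67, at 215 and 91.9 CPM. The samples of a group share no order, and the cause of this spread was not tested.

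**Figure D2:**
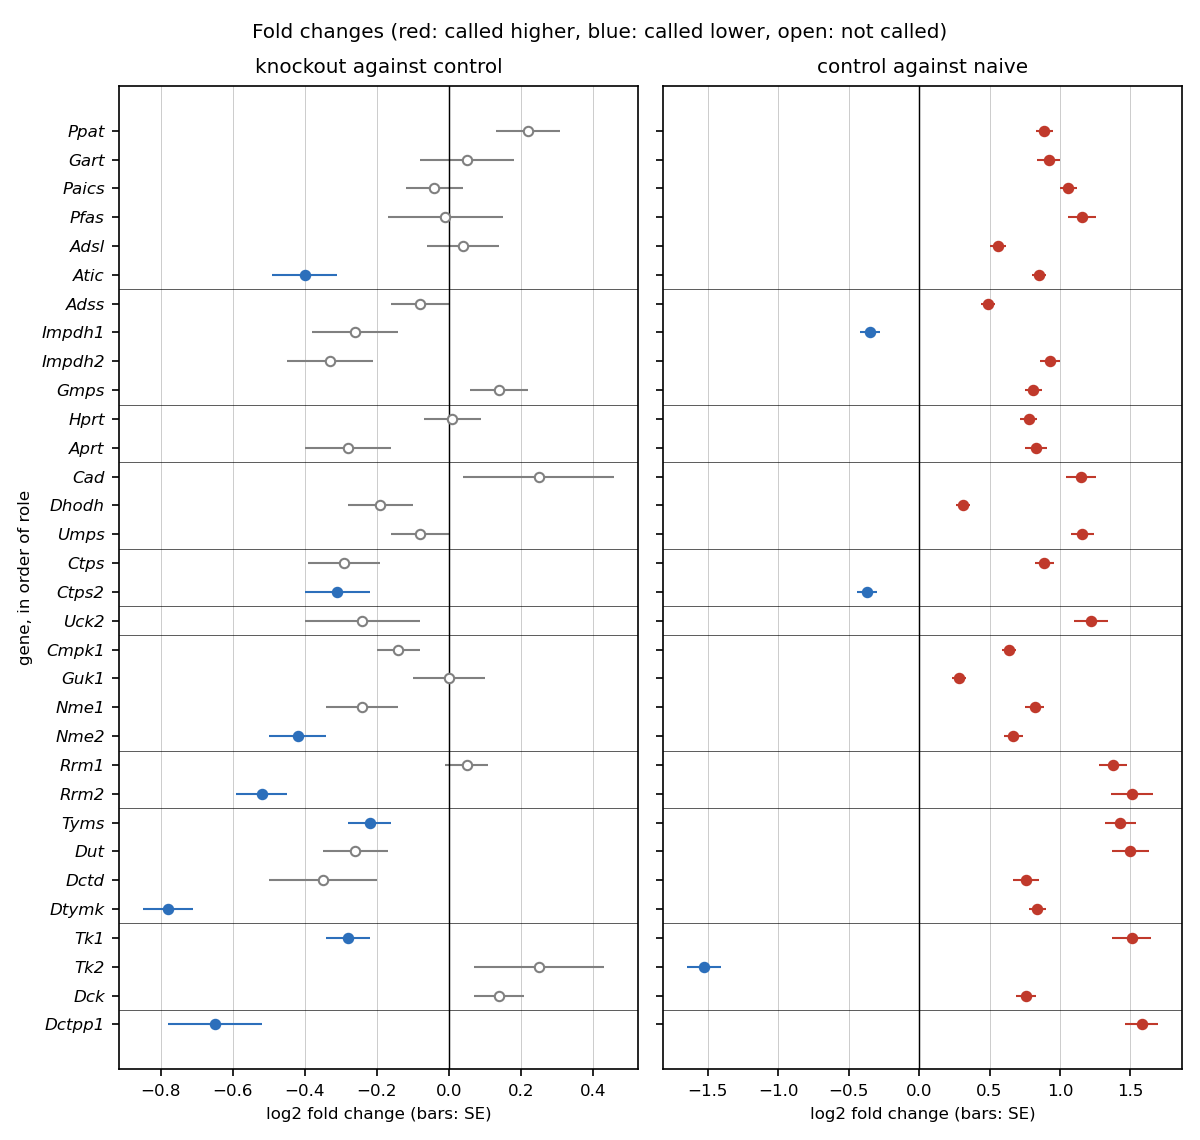
Log2 fold changes (points) with standard errors (bars) of the 32 genes in order of role, for knockout against control on the left and control against naive on the right, on different scales. On the left 8 genes were called lower and 0 higher, with Dtymk at -0.78, and on the right 29 were called higher and 3 lower, with Tk2 at -1.53.

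Within stimulated cells, the knockout libraries had lower transcripts for 8 of the 32 genes and higher for none that passed. Thymidylate kinase, dCTP pyrophosphatase and the small subunit of ribonucleotide reductase fell most, while Rrm1 and most of the purine pathway did not pass. The 8 genes make up 25.0% of the 32, against 7.24% of the 18651 genes tested that were lower, and the 0 higher genes stand against 7.62%. DESeq2 also called 0 higher. At an unadjusted p under 0.05, edgeR gave 2 higher genes, Ppat and Dck, and 15 lower, and DESeq2 gave the same counts. The median log2 fold change was -0.21 for the 32 genes and -0.01 for all genes tested. Of the 10 deoxynucleotide genes 5 fell (median -0.27), and of the 22 ribonucleotide genes 3 fell (median -0.11). Levels of 13 genes (40.6%) were lower in both knockout libraries than in all 8 controls and those of 0 were higher, where 12.9% of all genes were lower and 10.9% higher without overlap.

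Dtymk had the largest fall. Its enzyme phosphorylates dTMP, from Tyms or from Tk1 and Tk2, and the gene lies on chromosome 1 (93792576 to 93801934, minus strand). Dtymk stood at 88.4 and 94.1 CPM in the knockout libraries, against 143, 157 and 167 CPM (lowest, median, highest) in controls. The knockout values lay within the range of the naive libraries, which had 74.4, 88.6 and 97.3 CPM. The log2 fold change was -0.78 (SE 0.07, 1.71-fold lower, adjusted p = 8.19e-05, quasi-likelihood test of edgeR, Benjamini-Hochberg), and it lay between -0.81 and -0.74 with any 1 library left out.

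Dctpp1 stood at 76.7 and 78.1 CPM in the knockout libraries, against 104, 126 and 147 CPM in controls (log2 fold change -0.65, SE 0.13, adjusted p = 0.00612, same edgeR test). Both knockout libraries were below every control and above every naive library. With a trend on GC content and exon length removed from each library, the log2 fold change was -0.36 (adjusted p = 0.0426), and without knockout library 2 it was -0.66 and did not pass (adjusted p = 0.0737).

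Ribonucleotide reductase combines the products of Rrm1 and Rrm2, and only the small subunit gene passed the test. Rrm2 stood at 1306 and 1156 CPM in the knockout libraries, against 1654, 1781 and 1893 CPM in controls (log2 fold change -0.52, SE 0.07, adjusted p = 0.00064, quasi-likelihood test of edgeR, Benjamini-Hochberg). Every control exceeded both knockout libraries. Rrm1, on chromosome 7 (102441695 to 102469771, plus strand), stood at 1133 and 1084 CPM in the knockout libraries, against 1004, 1058 and 1202 CPM in controls, and it overlapped (log2 fold change 0.05, SE 0.06, adjusted p = 0.646, same test). With all 3 groups in 1 fit, the fall of Rrm2 kept its size at -0.53 but did not pass (adjusted p = 0.13).

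**Figure D3:**
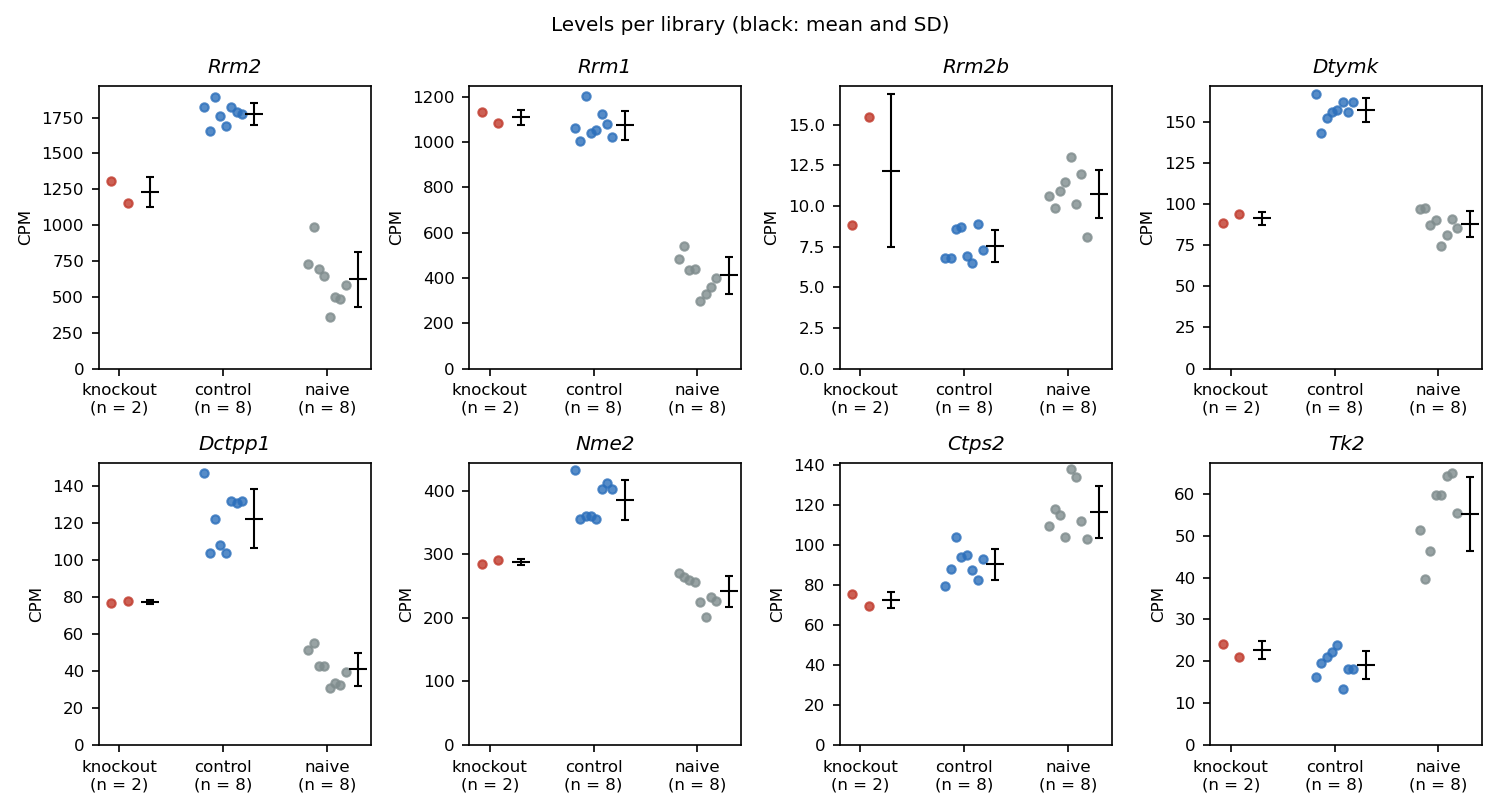
CPM per library (points) for Rrm2, Rrm1, Rrm2b, Dtymk, Dctpp1, Nme2, Ctps2 and Tk2 in 2 knockout, 8 control and 8 naive libraries, with the mean and SD in black. Both knockout points lie below all control points for Rrm2, Dtymk, Dctpp1, Nme2 and Ctps2, and they lie among the control points for Rrm1. For Tk2 1 knockout point is above all controls and the other among them.

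The other genes that fell did so by less. Nme2 stood at 285 and 291 CPM in the knockout libraries and at 356 to 433 CPM in controls (log2 fold change -0.42, SE 0.08, adjusted p = 0.0073, quasi-likelihood test of edgeR, Benjamini-Hochberg), but it did not pass with the GC and length trend removed, at -0.20 (adjusted p = 0.073). Atic stood at 70.3 and 77 CPM in the knockout libraries and at 89.1 to 110.1 CPM in controls (log2 fold change -0.40, adjusted p = 0.0113, same test), and it did not pass without either knockout library (adjusted p = 0.0845 and 0.0666). Tk1 stood at 204 and 192 CPM against 229 to 258 CPM in controls (-0.28, adjusted p = 0.00934), and Tyms at 302 and 311 CPM against 339.8 to 378 CPM in controls (-0.22, adjusted p = 0.0197). For both genes every control exceeded both knockout libraries, and neither passed without knockout library 2 or with all 3 groups in 1 fit. Transcripts annotated as protein coding held only 36.4 to 38.3% of the Tyms counts in knockout and 32 to 37.4% in control libraries. The coding transcript Tyms-201 overlapped, at 107 to 117 CPM in knockout and 111 to 135 CPM in control libraries. Tyms-204, annotated as a target of nonsense-mediated decay, stood at 59.7 to 61.2 and 71.6 to 119.5 CPM. Ctps2, at 75.4 and 69.7 CPM in the knockout libraries against 79.6 to 104 CPM in controls (-0.31, adjusted p = 0.0445), lost its call in 15 of 21 alternatives. Without knockout library 2, 2 of the 8 falls passed, those of Dtymk and Rrm2.

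In 5 further genes, Impdh1, Impdh2, Cmpk1, Nme1 and Dut, both knockout libraries were also below all controls, but they did not pass, with log2 fold changes from -0.33 for Impdh2 to -0.14 for Cmpk1. The opening gene of purine synthesis, Ppat, had 194 and 210.2 CPM in the knockout libraries and 151 to 197 CPM in controls (0.22, adjusted p = 0.122, quasi-likelihood test of edgeR, Benjamini-Hochberg). Its coding transcript Ppat-202 was not higher, at 107 to 174 CPM in knockout and 131 to 174 CPM in control libraries. Ppat-201, annotated as a retained intron, stood at 35.8 to 87.3 CPM in knockout and 0 to 31.6 CPM in control libraries. Gart, Paics, Pfas and Adsl had log2 fold changes between -0.04 and 0.05, and Hprt and Guk1 0.01 and 0.00. Knockout library 1 was above knockout library 2 for 21 of the 32 genes. Cad differed between the knockout libraries themselves, with 177 and 348 CPM, and so did Uck2, with 131 and 195 CPM. Their group means against control rest on libraries that do not resemble each other. Of the 24 genes that did not pass, 10 changed sign in at least 1 alternative.

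Other measures moved between the same libraries. Among all genes tested, 7.62% were called higher and 7.24% lower in knockout against control. All 5 erythroid markers were called higher in the knockout libraries, with sums of 13.4 to 132 CPM in knockout, 0.443 to 17.3 CPM in control and 2.02 to 40.8 CPM in naive libraries. The sums of knockout and control overlapped. For Hbb-bs, knockout library 1 had 39.8 CPM and knockout library 2 had 4.18 CPM, with up to 5.54 CPM in controls. Of 7 B cell markers 6 were tested and 1, Ighm, was called higher in knockout libraries, with 799.9 and 635 CPM against 368 to 454 CPM in controls. The defining B cell genes Ms4a1 and Pax5 were under 1 CPM in all knockout and control libraries. The proliferation genes Mki67 and Top2a, chosen after their values were seen, stood at 394 and 566 CPM and at 769.7 and 1136 CPM in the knockout libraries, against 333 to 417 CPM and 702 to 913 CPM in controls (log2 fold changes 0.33 and 0.24, adjusted p = 0.0615 and 0.227, quasi-likelihood test of edgeR, Benjamini-Hochberg). Neither passed. The 8 dendritic cell and macrophage markers and the 3 tested NK cell markers gave 0 calls, and 1 of 3 CD4 T cell markers was lower in knockout libraries. The part of all these measures in the falls above was not tested.

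Ratios within gene pairs describe the balance of partners or paralogs in each library and were not tested. Rrm2 over Rrm1 was 1.07 and 1.15 in knockout libraries and had a median of 1.65 and a maximum of 1.74 in controls, with no overlap (mean log2 ratio 0.15 ± 0.08 in knockout, 0.73 ± 0.05 in control and 0.57 ± 0.17 in naive libraries, SD). The knockout values were also below every naive library, although Rrm2 itself was higher in knockout than in naive libraries. Tk1 over Tk2 was 8.44 and 9.1 in knockout libraries, with medians of 12.4 in controls and 1.47 in naive libraries. Impdh2 over Impdh1 had a median of 2.18 in knockout, 2.2 in control and 0.96 in naive libraries, and knockout overlapped control. With Impdh2-ps added to Impdh2 the mean ratios were 2.81 in knockout, 3.03 in control and 1.23 in naive libraries. Ctps over Ctps2 had medians of 1.34 in knockout, 1.27 in control and 0.586 in naive libraries. Per kilobase the ratio was at least 1.42 in knockout and 1.35 in control libraries, so that Ctps was above Ctps2 there, and 0.479 to 0.859 in naive libraries, where it was below. Nme1 over Nme2 was 1.59 and 1.88 in knockout libraries and reached 1.59 in controls, so the groups barely separated. Counts of Nme2 are uncertain, since 4 annotated copies or joint transcripts resemble it, with Gm7730 at 2.19% of its level. The joint transcript gene Gm20390 was listed at 0 in both knockout libraries and at 0 to 38.9 CPM in controls, and with it Nme1 and Nme2 together stood at 787 ± 47.7 CPM in knockout and 989 ± 80.9 CPM in control libraries (SD, n = 2 and 8).

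**Figure D4:**
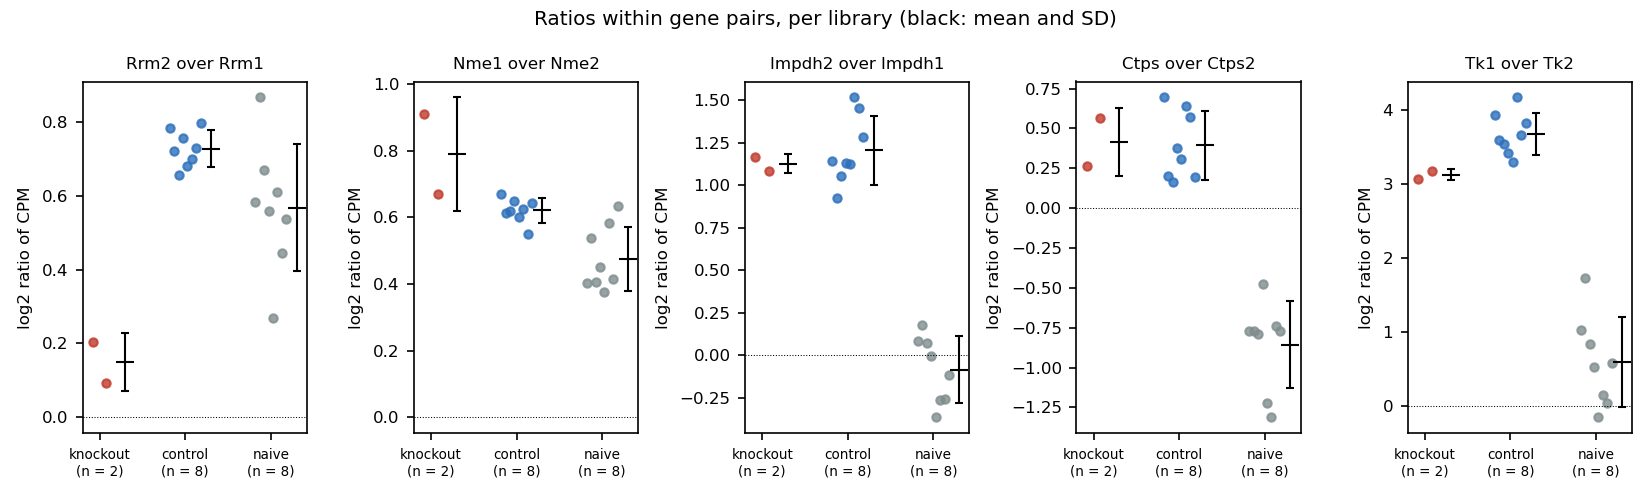
Log2 ratio of CPM within gene pairs in each library (points) for 2 knockout, 8 control and 8 naive libraries, with the mean and SD in black and a dotted line at equal CPM where it falls in the panel. For Rrm2 over Rrm1 both knockout points lie below all others, and for Impdh2 over Impdh1, Ctps over Ctps2 and Tk1 over Tk2 the naive points lie below all knockout and control points.

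Knockout against naive shares its libraries with both comparisons above, so its values are given side by side and no overlap between comparisons is drawn. In it 27 of the 32 genes were higher and 3 lower, where 21.1% of 19776 genes were higher and 23.6% lower. The largest rises were those of Rrm1, Cad and Dut. Rrm1 stood at 1133 and 1084 CPM in knockout libraries, against 298, 418 and 543 CPM in naive libraries (log2 fold change 1.46, SE 0.17, adjusted p = 2.66e-05, quasi-likelihood test of edgeR, Benjamini-Hochberg). Cad stood at 177 and 348 CPM in knockout libraries, against 65.8, 100.5 and 126 CPM in naive libraries (1.42, SE 0.20, adjusted p = 0.000136), but its place among the largest rises rests on knockout library 2, without which the log2 fold change was 0.88. Dut stood at 407 and 353 CPM in knockout libraries, against 102, 164 and 230.1 CPM in naive libraries (1.27, SE 0.21, adjusted p = 0.000409). None of these 3 overlapped between the groups, where 21.3% of all genes were higher without overlap. The genes that fell were again Tk2 (-1.25), Ctps2 (-0.65) and Impdh1 (-0.59), and for each both knockout libraries were below every naive library, where 25.2% of all genes were lower without overlap. Dtymk (0.09, SE 0.10, adjusted p = 0.52) and Dhodh (0.15, SE 0.08, adjusted p = 0.146) did not pass. For Dtymk the log2 fold changes were thus -0.78 for knockout against control, 0.84 for control against naive and 0.09 for knockout against naive.

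Transcript counts were used to describe which annotated forms of each gene were present. The share of the counts of a gene in transcripts annotated as protein coding was computed for 7896 genes, 27 of the 32 among them, and no test was run. These are protein-coding genes with non-coding transcripts counted and a level of at least 1 CPM in all 18 libraries. In 5 genes, Adsl, Umps, Ctps2, Rrm1 and Dtymk, this share was lower in both knockout libraries than in all controls, and in 0 it was higher. Over all 7896 genes the shares were lower without overlap in 7.08% and higher in 2.57%. For Ctps2 and Rrm1 the shares differed by less than 1 percentage point, at 99.3 ± 0.0187% and 99.6 ± 0.135% in knockout libraries against 99.6 ± 0.112% and 99.8 ± 0.0421% in controls (SD). In control against naive, 7 genes (Gart, Pfas, Atic, Aprt, Uck2, Dtymk and Dck) had a higher coding share in all controls and 0 a lower one. Among the 7896 genes, 15.3% were higher and 0.418% lower. For Gart, Uck2 and Dck the means differed by less than 1 percentage point. They were 99.8, 99.7 and 99.9% in controls against 99.3, 99 and 99.8% in naive libraries. Shares of overlapping transcripts are estimates and are uncertain beyond counting error.

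Among these 5 genes Adsl had the largest difference in coding share, although its gene level did not pass. Adenylosuccinate lyase, its product, acts both in purine synthesis and in the AMP branch. The coding transcript Adsl-201 held 50.7 and 54.1% of the Adsl counts in knockout libraries, 66.3 to 82.2% in controls and 48.5 to 79.5% in naive libraries. Adsl-205, annotated as a target of nonsense-mediated decay, held 45.7 and 49.2% in knockout libraries, 17.5 to 33.1% in controls and 20.1 to 51.2% in naive libraries. Knockout and control did not overlap, while the naive range spanned most of both. In level Adsl-205 stood at 135 ± 17.8 CPM in knockout and 74.5 ± 13.6 CPM in control libraries, and Adsl-201 at 148 ± 5.04 CPM in knockout and 202 ± 37.5 CPM in control libraries (SD, n = 2 and 8), against 284 ± 22.7 and 277 ± 29.7 CPM for the whole gene.

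Adsl-205 lacks exon 4 of Adsl-201, an exon of 80 bases, and keeps the intron after exon 8 of Adsl-201 (between 80963729 and 80963880 on chromosome 15). It also ends earlier in the last exon, so the counts may reflect any of these differences. Exon 4 is shown because its absence sets the transcripts apart, from the GENCODE M21 transcript Adsl-201, with capitals for the exon and lower case for 30 bases of the exons on either side. The exon lies on the plus strand at chr15:80956213-80956292 in GRCm38.
Adsl exon 4 with flanking exons: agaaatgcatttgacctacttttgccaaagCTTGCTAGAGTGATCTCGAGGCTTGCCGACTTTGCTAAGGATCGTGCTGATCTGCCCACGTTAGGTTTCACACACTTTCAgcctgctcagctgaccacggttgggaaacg
The letters AGAA, part of the motif known for TRA2B, were searched on the strand of the transcript and were not in the exon. They were in 49.2% of 969 internal exons of coding transcripts with this length.

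In Umps the decay transcript Umps-202 held 7.22 and 8.37% of the counts in knockout libraries and 2.65 to 6.71% in controls. In Dtymk both the gene level and the shares differed. Dtymk-201, the transcript of 5 exons, held 45.9 and 53.3% of the counts in knockout libraries, 63 to 67.7% in controls and 54.7 to 59.3% in naive libraries. Its level was 45.1 ± 2.8 CPM in knockout, 104 ± 5.48 CPM in control and 50.8 ± 5.35 CPM in naive libraries (SD, n = 2, 8 and 8). Dtymk-202, a form of 2 exons annotated as coding, whose exon 2 runs on into the next intron and which lacks exons 3 to 5, held 34.4 and 40% in knockout libraries and 23.7 to 29.1% in controls, at 34.1 ± 5.1 CPM in knockout and 40.8 ± 4.05 CPM in control libraries. Of these transcripts Dtymk-201 had the larger difference in level.

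A further 54 genes around the pathway, in 6 lists, were examined for context. In knockout against control 52 were tested, of which 5 were higher and 5 lower, with a median log2 fold change of -0.01, where 7.62% of all genes were higher and 7.24% lower. In control against naive 50 were tested, of which 29 were higher and 15 lower (median 0.30), where 32.5% of all genes were higher and 39.0% lower. Knockout against naive gave 22 higher and 13 lower of 52 (median 0.21), where 21.1% of all genes were higher and 23.6% lower.

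In knockout against control, 3 of 8 genes of folate supply were called higher and 0 lower, where 7.62% of all genes were higher. Over the whole list 4 log2 fold changes were above 0 and 4 below, with a median of 0.08. This pathway provides the carbon units for purine rings and thymidylate. Mthfd2 stood at 300.4 and 295 CPM in knockout libraries, against 204 to 248 CPM in controls (log2 fold change 0.43, SE 0.07, adjusted p = 0.00287, quasi-likelihood test of edgeR, Benjamini-Hochberg). Shmt2 stood at 441 and 461 CPM in knockout libraries, against 293 to 405 CPM in controls (0.40, SE 0.10, adjusted p = 0.0238, same test). Both encode mitochondrial enzymes and were named after their values were seen. The third, Aldh1l2, had 67 and 117 counts in knockout libraries and 0 in 7 of the 8 controls, with 6 in the other, so its fitted log2 fold change of 5.05 depends on the prior count. Mthfd1 (-0.29) and Shmt1 (-0.40) were below every control in both knockout libraries and did not pass.

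Of 10 other kinases and subunits 1 was higher and 3 lower in knockout against control, where 7.62% of all genes were higher and 7.24% lower. Rrm2b, which encodes the small subunit of ribonucleotide reductase that p53 induces, stood at 8.86 and 15.5 CPM in knockout libraries, against 6.51 to 8.91 CPM in controls (0.69, SE 0.18, adjusted p = 0.0271, quasi-likelihood test of edgeR, Benjamini-Hochberg). Its groups overlapped, since only 1 knockout library was above all controls. Ak4, a mitochondrial adenylate kinase gene, was at 0.167 to 0.274 CPM in knockout libraries and 0.363 to 3.17 CPM in controls (-2.65, SE 0.76, adjusted p = 0.036). The others that fell were the kinase genes Ak3 (-0.34) and Cmpk2 (-0.80). Of 7 transporters, the mitochondrial pyrimidine nucleotide carrier gene Slc25a36 was higher (0.91, adjusted p = 0.00603), while 2 were lower, Slc25a33 (-0.76) among them. None of the genes of phosphoribosyl pyrophosphate supply, other salvage or breakdown passed, with 0 of 4, 0 of 7 and 0 of 16 tested. The same shares of all genes apply to the transporters and to these lists, which are small.

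In control against naive, of 4 genes of phosphoribosyl pyrophosphate supply 3 rose, with Prps1 1.67-fold higher, and of 7 folate genes tested 6 rose and 1 fell. Of 16 genes of breakdown and pool limitation 6 rose and 6 fell, where 32.5% of all genes rose and 39.0% fell. The AMP deaminase gene Ampd1 had the largest fall, with 0.0403 to 0.443 CPM in controls and 4.49 to 12.8 CPM in naive libraries (log2 fold change -5.24, SE 0.37, adjusted p = 1.01e-09, quasi-likelihood test of edgeR, Benjamini-Hochberg). Samhd1, whose enzyme degrades deoxynucleotides and which was named after its values were seen, stood at 182 ± 24.6 CPM in controls and 420.1 ± 55.3 CPM in naive libraries (2.3-fold lower, adjusted p = 1.37e-09, same test). It was 156 CPM in both knockout libraries and did not pass against controls (-0.22, adjusted p = 0.293). The nucleoside transporter gene Slc28a2 stood at 40.8 ± 6.69 CPM in controls and 178 ± 29.3 CPM in naive libraries (4.36-fold lower), and the salvage kinase gene Uckl1 at 38.6 ± 5.89 CPM in controls and 97 ± 11.2 CPM in naive libraries (2.51-fold lower). Ak4 was 5.77-fold higher in controls, but its counts were low, at 27 to 267 in controls and 0 to 34 in naive libraries. The size of this fold is therefore uncertain. In knockout against naive the leading genes of the lists were Prps1 (0.97), Aldh1l2 (3.86), Upp1 (-3.50), Ak1 (2.43), Ampd1 (-4.29) and Slc28a2 (-1.75). For Upp1 both knockout libraries held 0 counts, and Ak1 had 17 and 13 counts in knockout libraries and at most 6 in naive libraries, so the fitted values of both depend on the prior count.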

How the data were processed

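Estimated counts per gene and per transcript were deposited for 18 RNA sequencing libraries, as whole numbers. Per the labels, RNA was purified with the QIAGEN miRNeasy Micro kit and copied with a SMARTer polyA kit. The submitters' processing notes name DESeq2 1.30.1, StringTie 2.1.0, STAR 2.7.1a, R 4.0.5 and SAMtools 1.9, and both mm10 and mm39 without a role. All 55536 Ensembl identifiers are in GENCODE M21, so coordinates are in GRCm38.

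The 26248 rows with numeric identifiers (0.0513 to 0.132% of the counts) name no gene and were left out, as were 97 spike-in rows. The files hold 0 columns without a sample. Each pair of groups was fitted on its own with edgeR 4.0.16 in R 4.3.3 (filterByExpr with a minimum count of 10, TMM, robust quasi-likelihood test, prior count 2), and p-values were adjusted by Benjamini-Hochberg over all genes tested and called under 0.05. SD describes the libraries of a group, and SE the fitted log2 fold change. The main edgeR test was tried on simulated counts for control against naive and for knockout against control. Transcripts of the 32 genes were searched against all GENCODE M21 transcripts with blastn 2.17.0, and copies with at least 90% identity over 100 bases and 30% of the transcript were kept.

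The genes, the lists and 2 of the alternatives were chosen with earlier results of these data known. Library values, or a summary of them in groups of 8, were given for the 3 largest rises and falls among called genes in each comparison and for the paralog pairs, and from each further list the called gene with the largest change was named. Some genes of the lists are not reported here. The alternatives were each library left out, subsets of the controls, a joint fit of all groups, the replicate number as a block, DESeq2 1.42.0, voom of limma 3.58.1 with quality weights, RLE factors, scaling by total counts, no low-count filter, a trend on GC content and exon length removed, and a log2 change of 1 or more in size.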

Additional observations from a re-analysis of the deposited data

Results flagged for a closer look

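In 64 groups of 8 libraries (32 genes in control and in naive libraries) the highest or lowest library was compared with the nearest other one, and 2 groups had a gap above Dixon's critical value for 8 samples. Chance flags about 1 in 20 groups. Impdh1 stood at 161 CPM in naive replicate 5, and at 134 to 146 CPM in the other naive libraries. Guk1 stood at 68.9 CPM in naive replicate 6, and at 59.3 to 63.8 CPM in the others. The causes were not tested.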

How the results depend on the processing

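In control against naive, 29 genes were higher and 3 lower under every alternative except a log2 change of 1 or more in size, which left 11 and 1. In knockout against control, the 8 lower genes became 2 to 8 with 1 library left out (2 without knockout replicate 2), 4 with all groups in one fit, and 0 at a log2 change of 1 or more in size or with controls 1 and 2 only, where 6 were lower at an unadjusted p under 0.05. DESeq2 called 9, and RLE factors, total counts, no filter, voom and the GC and length trend 7 each. Where 1 knockout library is left out, the other is assumed to vary like the controls. In knockout against naive, the 27 higher genes became 23 to 27 with 1 library left out and 11 at a log2 change of 1 or more in size, which left 1 of 3 lower. Of all genes, 1421 were higher and 1351 lower in knockout against control, against 304 and 347 without knockout replicate 2.

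The replicate numbers did not pair the libraries: same-numbered control and naive libraries had correlations of their deviations between -0.04 and 0.0495 over 17078 genes, and knockout and control libraries 0.0121 and 0.0595 over 18651 genes. With the replicate block, 0 genes of the set were called lower in knockout against control (11 at an unadjusted p under 0.05, edgeR), 0 of all genes were called, and 13 were higher in knockout against naive. With it Dtymk had a log2 fold change of -0.76 and Rrm2 of -0.51. Under the block, only libraries whose number occurs in both groups inform a comparison. For the knockout comparisons this leaves little to estimate the spread, so the loss of calls was largely built into the design.

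With 1 library left out, an alternative chosen after seeing the data, 30 to 31 genes did not overlap in level in control against naive (30 with all libraries), and 13 to 20 in knockout against control (13 with all). Coding shares without overlap were 7 to 9 (7 with all) in control against naive and 5 to 10 (5 with all) in knockout against control. Leaving out a library can only narrow the range of its group, so none of these counts could fall. They are therefore no check on the results. With transcripts of at least 1 CPM only, the counts for coding shares were 2 and 3, and the cause of that change was not tested. No called gene of the set changed sign under any alternative run. Ctps passed without control replicate 2 (-0.32, adjusted p = 0.0416) and Impdh2 with DESeq2 (-0.32, adjusted p = 0.0487). With 2 knockout libraries, differences smaller than those called may not be detectable.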
